A study of Ovis aries with 4 samples.

Results

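The insulin-like growth factor (IGF) axis genes described here are IGF1, IGF2, IGFBP3, IGFBP5 and IRS1, taken by gene name from lists of N6-methyladenosine (m6A) peaks of sheep ovary. All 5 had a peak, among 5261 genes with a peak in either list. Because the genes were chosen with earlier results of these data known, this is no result about the axis. The 5 genes held 11 of 3656 peaks of the aged list and 6 of 4378 peaks of the young list. The aged group was Cele black sheep of 5 to 6 years and the young group Cele black sheep of 1 to 2 years, with no treatment named for either. Each age had 1 anti-m6A immunoprecipitate of ovarian tissue and 1 input library, 4 samples in all. A peak marks RNA recovered more in the immunoprecipitate than its background. The lists hold peaks and no expression levels, and no input data were analysed here, so the abundance of each transcript at either age is unknown, and changes in cell makeup and in RNA per cell cannot be told apart.

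IGF1 and IGF2 are secreted ligands that bind the receptor IGF1R. IGFBP3 and IGFBP5 are carriers that hold IGFs outside the cell and regulate their access to the receptor. IRS1 is the docking protein that passes the signal from the activated receptor to PI3 kinase. In the ovary this axis acts together with gonadotropins on the growth and steroid output of follicle cells. m6A is placed on adenosines of messenger RNA, is typically found near stop codons and in 3' UTRs, and is read by proteins that act on splicing, translation and decay.

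With 1 list per age there was no replicate, so every value below is a description of these lists, with no test between ages. Positions count from 1, after 1 base was added to each deposited start, and the deposited files do not name their genome build. Fold enrichment is the authors' linear value per peak. The lowest fold in either list was 1.5, so a transcript without a listed peak may have had weaker enrichment. The median fold was 1.88 in the aged list and 2.05 in the young list, and the median log10 p was -6.22 in the aged list and -15.3 in the young list. The depth of the libraries is unknown, and folds of the 2 lists are set side by side without knowing that they are on a common footing. Of 12 ovarian marker genes checked, 2 had a peak in the aged list and 4 in the young list, with FSHR of granulosa cells in both. The oocyte gene NOBOX had an aged peak only, and STAR and CYP17A1 of theca and luteal cells and the oocyte gene FIGLA had a young peak only. The part of cell makeup in the peaks of the IGF axis was not tested.

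Peaks of IGF1, IGF2 and IGFBP3 were listed at both ages, and those of IGFBP5 and IRS1 in the aged list only. None of the 5 genes was young-only. Of all genes with a peak, 26.9% were aged-only, 41.3% were young-only and 31.8% had peaks at both ages. With 5 genes, the split of 2, 0 and 3 is too small to be set against those shares. Merged over both lists, the peaks fell on 12 separate sites, of which 6 had an aged peak only, 1 a young peak only and 5 a peak at both ages. Sites with a peak at 1 age only are common in these lists, since of all peaks 41.0% in the aged list and 34.3% in the young list overlapped a peak of the other age. With only peaks of a fold of at least 2.00, the median over both lists, IGF2 and IRS1 were aged-only, IGFBP3 was young-only, IGF1 had peaks at both ages and IGFBP5 had none. In each list where IGF1, IGF2, IGFBP3 or IRS1 had more than 1 peak, no peak of another gene lay between the first and the last.

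**Figure D1:**
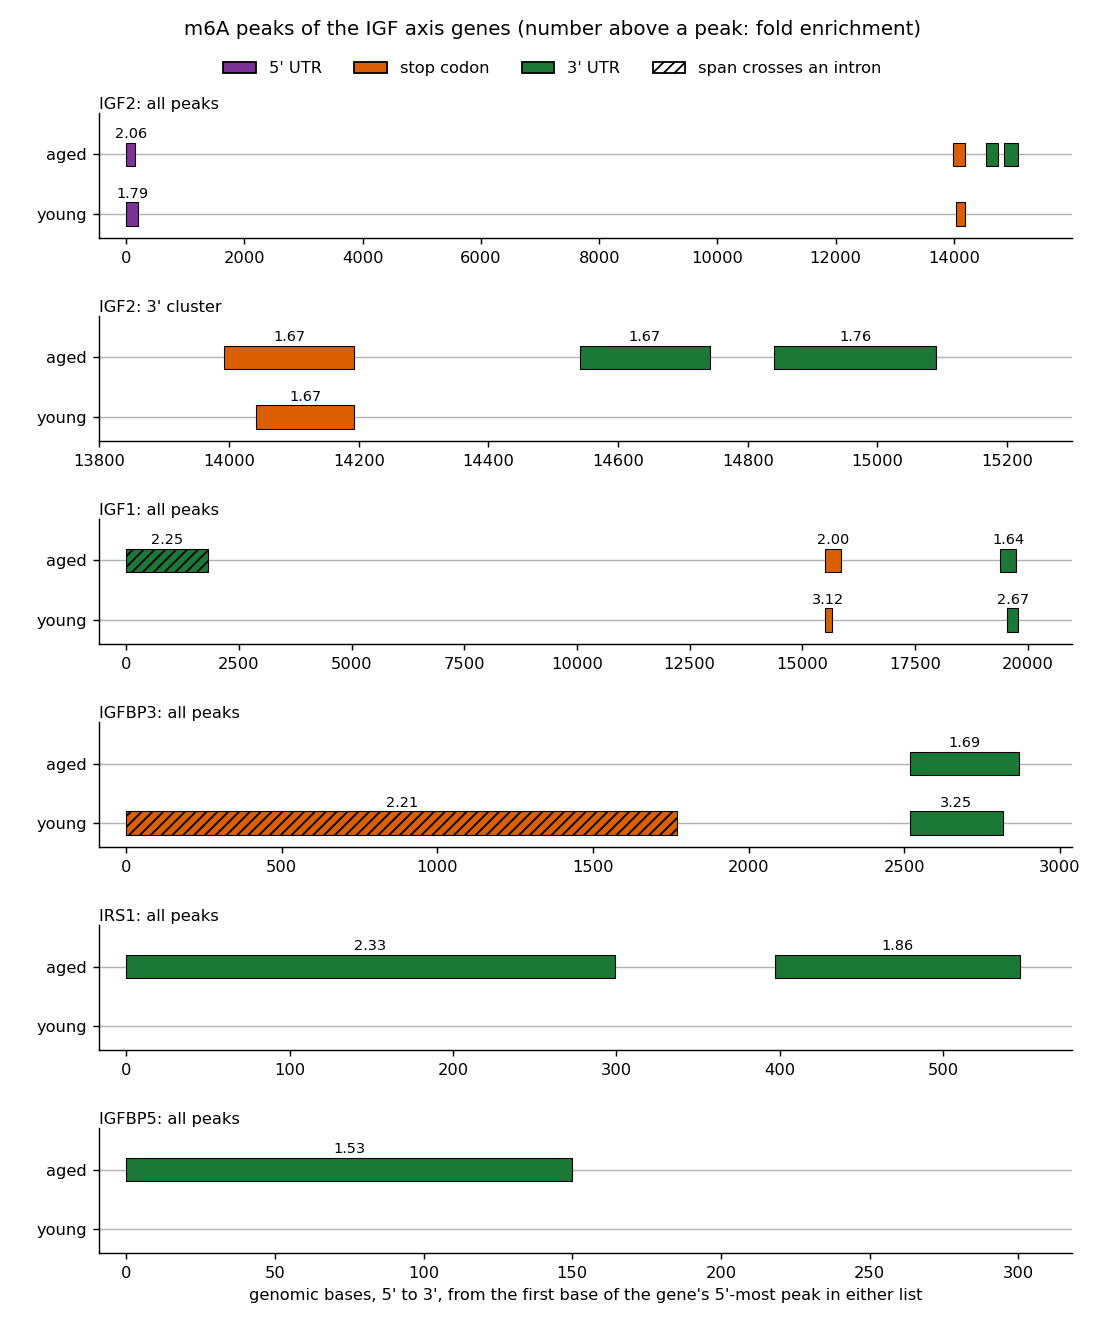
Peaks of the 5 IGF axis genes as boxes along the gene, 5' to 3', with the aged list above the young list; the x axis gives genomic bases from the first base of the gene's 5'-most peak, and numbers above boxes are folds. IGF2 had 4 aged peaks and 2 young peaks, and the second panel enlarges its 3' cluster, where 3 aged peaks stood beside 1 young peak; hatched boxes include an intron.

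The ligand gene IGF2, an imprinted fetal growth factor gene, had 4 aged peaks and 2 young peaks on the plus strand of chromosome 21. Its 5'-most site, labelled 5' UTR, was listed at both ages from the same first base, 45785325, to 45785475 in the aged list and to 45785525 in the young list. The next site, labelled stop codon, ran from 45799317 in the aged list and from 45799367 in the young list and ended at base 45799517 in both. The gap between the 5' UTR site and the site labelled stop codon was 13841 genomic bases in the aged list. The remaining sites, both labelled 3' UTR, had an aged peak only.

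The IGF2 aged peaks labelled 3' UTR spanned 45799866 to 45800066 and 45800166 to 45800415. They began 348 bases after the end of the aged peak labelled stop codon and lay 99 bases from each other. The IGF2 peaks thus formed 1 site in the 5' UTR and a cluster of 3 sites at the other end, the young list marking only the first site of that cluster. Added over the gene, the peaks covered 803 bases in the aged list and 352 bases in the young list.

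Few genes had such a number of peaks. Of genes in the aged list, 0.551% (17 of 3086) had 4 or more peaks. As IGF2 was chosen with earlier results of these data known, its place among these genes is a description only. IGF2 and IRS1 each had 2 more aged than young peaks, a difference of at least that size in the aged direction being present in 3.61% of all genes with a peak, 190 genes, and in the young direction also in 3.61%, 190 genes. A surplus of that size was therefore as frequent in one list as in the other over all genes. Of the 4 IGF2 aged peaks 3 shared a single log10 p, as did both IRS1 aged peaks. Whether peaks with a shared p-value were called separately is not stated, which limits these counts. Over all genes with 2 or more peaks, such sharing was present in 40.4% of aged and 20.6% of young genes.

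The folds of IGF2 were low at both ages. In the aged list they were 2.06 for the 5' UTR site, 1.67 for the site labelled stop codon, and 1.67 and 1.76 for the sites labelled 3' UTR, from 5' to 3'. In the young list they were 1.79 for the 5' UTR site and 1.67 for the site labelled stop codon. Only the aged 5' UTR peak exceeded the median fold of its own list, and the fold at the stop codon label was the same at both ages.

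The p-values of the IGF2 aged peaks ranked further up their list than the folds did. The log10 p was a single value, -18.2, for all 3 aged peaks of the 3' cluster, and how p-values were assigned to peaks of 1 gene is not stated, so it may not be a strength of each peak. It was beyond that of 96.0% of aged peaks. The log10 p of the aged 5' UTR peak was -14.1, beyond that of 92.8%. In the young list the log10 p was -16.2 for the 5' UTR peak, beyond that of 54.4% of young peaks, and -11.4 for the peak labelled stop codon, beyond that of 24.5%. IGF2 thus combined folds mostly below its lists' medians with aged p-values beyond those of most aged peaks.

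IGF1, the other ligand gene and a local growth factor of follicles, had 3 aged peaks and 2 young peaks on the minus strand of chromosome 3. The aged peak labelled stop codon (171772956 to 171773305) contained the whole young peak of that label (171773156 to 171773305), and both shared their 5' edge. Further 3', the aged peak labelled 3' UTR (171769068 to 171769417) overlapped the young one (171769018 to 171769268) by 201 bases. Both sites thus had a peak and the same label at both ages.

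A further IGF1 site had an aged peak only. It spanned 171786990 to 171788809, 1820 genomic bases of which 350 were counted as peak, so that an intron lay within it. It was labelled 3' UTR although it lay 13684 bases on the 5' side of the aged peak labelled stop codon. The RefSeq gene table used for names lists 13 transcripts of IGF1, and the deposited rows do not say which of them gave a label.

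The IGF1 folds at the shared sites were smaller in the aged list. At the stop codon label the fold was 2.00 in the aged list and 3.12 in the young list, which was above 57.3% of aged and 91.2% of young peaks. At the 3' UTR label it was 1.64 in the aged list and 2.67 in the young list, above 21.1% of aged and 79.4% of young peaks. The aged-only site had a fold of 2.25. All 3 IGF1 aged peaks were 350 bases wide, against 150 and 251 bases for the young peaks, and IGF1 peaks covered 1050 bases in the aged list and 401 bases in the young list.

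IGFBP3, which encodes the main carrier of IGFs in blood, was the only one of the 5 genes with fewer aged than young peaks, 1 against 2, on the plus strand of chromosome 4. Its 3' UTR site began at base 77785890 at both ages and ended at 77786239 in the aged list and at 77786189 in the young list. The fold there was 1.69 in the aged list and 3.25 in the young list, above 27.1% of aged and 92.7% of young peaks. The young fold of 3.25 was the highest of all 17 peaks of these genes, followed by the young IGF1 fold of 3.12.

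The IGFBP3 peak labelled stop codon was in the young list only. It spanned 77783372 to 77785142, 1771 genomic bases of which 200 were counted as peak, and had a fold of 2.21. It ended 747 bases before the young 3' UTR peak. IGFBP3 peaks covered 350 bases in the aged list and 500 bases in the young list.

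IGFBP5, a carrier gene expressed in many tissues, had 1 aged peak and no young peak. The peak lay on the minus strand of chromosome 2 (218666874 to 218667023) and was labelled 3' UTR. Its fold of 1.53 lay just above the lowest fold in the lists, with 5.55% of aged peaks below it, and its log10 p of -3.53 was beyond that of 15.6% of aged peaks. It was the weakest of the 11 aged peaks by both measures, so the aged-only status of IGFBP5 rests on a peak near the lower limit of the lists.

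IRS1 had 2 aged peaks and no young peak, also on the minus strand of chromosome 2. The peaks spanned 229016329 to 229016627 and 229016081 to 229016230, both labelled 3' UTR and 98 bases apart. Their folds were 2.33 and 1.86, above 78.5% and 46.8% of aged peaks. The fold of 2.33 was the highest among the 11 aged peaks. IRS1 and IGF2 thus both had a pair of closely spaced aged 3' UTR peaks with no young peak at these sites. In each pair the peaks shared a single log10 p, and whether they were called separately is not stated. How often such pairs are present over all genes was not counted.

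**Figure D2:**
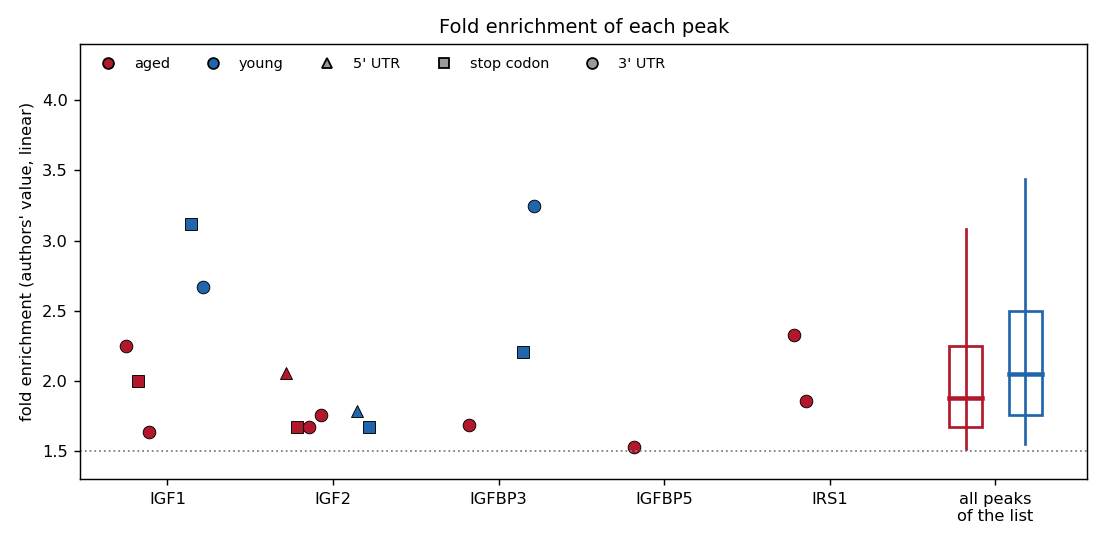
Fold enrichment of every peak (y axis, the authors' linear value) by gene, aged left of young, with marker shape giving the label; at the right, boxes show the quartiles and median of each whole list and lines the 5th to 95th percentiles. The young peaks of IGF1 and IGFBP3 reach 3.12 and 3.25, whereas no aged peak exceeds 2.33; the dotted line is the lowest listed fold, 1.5.

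Over all 5 genes the fold ranged from 1.53 to 2.33 with a median of 1.76 in the aged list, and from 1.67 to 3.25 with a median of 2.44 in the young list. A fold of at least 2 was reached by 4 of 11 aged peaks and by 4 of 6 young peaks. Of all aged peaks 57.3% had a fold below 2.0, and the median fold of all young peaks was 2.05. The peaks of these genes are too few to set their counts apart from the whole lists. The median of these genes was thus below that of all peaks in the aged list and above it in the young list. All 17 peaks had an adjusted p below 0.01. Over all genes that limit left 1303 aged-only, 2250 young-only and 1579 shared genes, against 1415, 2175 and 1671 without it. Passing it therefore does not set these genes apart.

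Of the 11 aged peaks, 5 overlapped a young peak of the same strand, sharing 1 base or more, and of the 6 young peaks 5 overlapped an aged one. Over all peaks the overlap was 41.0% of aged peaks (Wilson 95% interval 39.4 to 42.6, counting error only) and 34.3% of young peaks (32.9 to 35.8). Within genes that had peaks at both ages it was 72.2% of aged and 74.2% of young peaks. In IGF1, IGF2 and IGFBP3 the overlap was 5 of 8 aged and 5 of 6 young peaks, too few peaks to set apart from those shares.

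The 5 overlapping pairs are too few to set apart from the shares over all pairs, which are given beside them. At least 1 edge was identical to the base in 4 of 5 pairs, all but the 3' UTR pair of IGF1, against 47.5% of all 1530 overlapping pairs. The label was the same at both ages in 5 of 5 pairs, against 72.2% of all pairs. The aged peak was the wider one in 4 of 5 pairs, all but the 5' UTR pair of IGF2, against 49.3% of all pairs. In genes with peaks at both ages, the aged list covered more bases in 52.2% of genes, and it did so in IGF1 and IGF2 but not in IGFBP3.

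The fold was lower in the aged list for 3 of 5 pairs, against 56.3% of all pairs, and 1 pair each was equal and higher. The lower pairs were those of IGF1 and IGFBP3, whose aged over young differences on the log2 scale were -0.64 at the IGF1 stop codon label, -0.70 at the IGF1 3' UTR label and -0.94 in IGFBP3. The IGF2 differences were 0.20 at the 5' UTR and 0 at the stop codon label. Over all pairs the median difference was -0.06, so IGF1 and IGFBP3 lay below it and both IGF2 pairs above it.

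**Figure D3:**
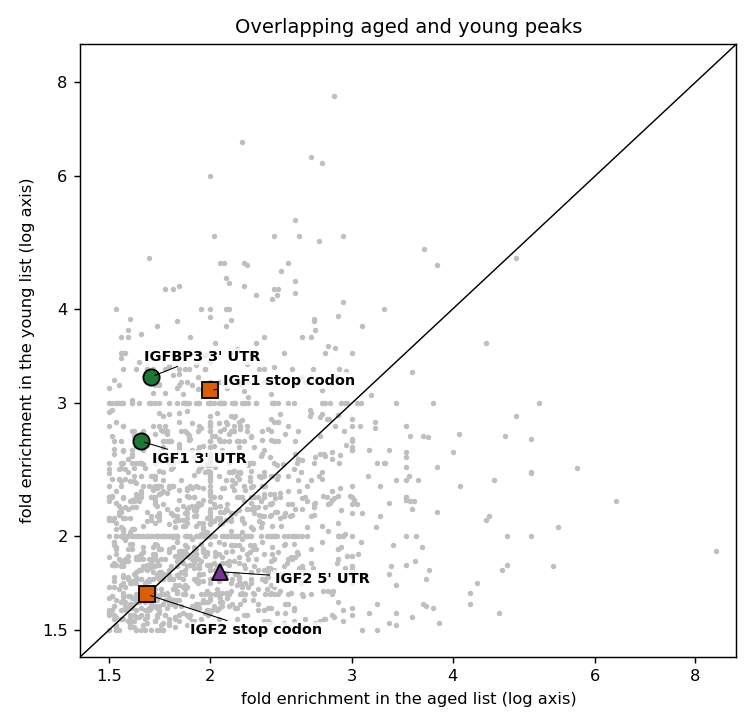
Fold of overlapping peaks in the aged list (x axis, log scale) and the young list (y axis, log scale), with all 1530 pairs in grey and the 5 pairs of IGF axis genes marked; the line marks equal folds. The IGF1 and IGFBP3 pairs lie above the line, with the lower fold in the aged list, and the IGF2 pairs lie on it (stop codon label) and below it (5' UTR).

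Among the aged peaks of these genes 2 were labelled stop codon, 8 3' UTR and 1 5' UTR, and among the young peaks 3 stop codon, 2 3' UTR and 1 5' UTR. Over the whole lists the stop codon label was on 15.3% of aged and 41.3% of young peaks. The 3' UTR label was on 66.4% of aged and 47.3% of young peaks, and the 5' UTR label on 2.49% and 1.55%. The peaks of these genes are too few to set apart from those shares. In the aged list the stop codon share was 2.58% on the minus strand and 27.5% on the plus strand. IGF1, a minus-strand gene, kept the label in the aged list, as did 7.41% (18 of 243) of overlapping minus-strand pairs with a young stop codon label.

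In these genes the stop codon label mostly lay on the 5' side of the 3' UTR label, the order in which these features follow each other on a transcript. In IGF2 the aged peak labelled stop codon lay on the 5' side of both aged 3' UTR peaks, and in IGF1 and IGFBP3 the young one lay on the 5' side of the young 3' UTR peak. In aged IGF1 it lay on the 5' side of 1 of the 2 peaks labelled 3' UTR. Over all genes with both labels this order held for 16.7% of aged pairs (16 of 96) and 6.28% of young pairs (14 of 223). On the plus strand of the aged list it held for 7 of 82 pairs, of which 2 were those of IGF2. On the minus strand of the aged list, where IGF1 lies, it held for 9 of 14 pairs.

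The RefSeq table also gives gene ends, and none of the 17 peaks reached the final base of its gene. Of all peaks labelled stop codon in genes found in that table, 58.9% of aged and 70.8% of young peaks ended exactly there. These shares apply to the stop codon label alone, and no share was computed for peaks with other labels. The peaks labelled stop codon in IGF1, IGF2 and IGFBP3 were thus inside the gene. A 3' UTR peak of the same list lay beyond each of them, except for IGF2 in the young list.

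Several aged peaks of 1 gene shared their p-value. The 3 peaks of the IGF2 3' cluster, both IRS1 peaks and 2 of the 3 IGF1 peaks each had a single log10 p, at -18.2, -8.74 and -6.15. This was so for all 3 of these genes with 2 or more aged peaks and for 0 of 3 with 2 or more young peaks. Over all genes with 2 or more peaks it was 40.4% in the aged list and 20.6% in the young list. Within such a set the folds could differ, as for IRS1 with 2.33 and 1.86, so the tied p-values do not rank those peaks.

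The wider axis was followed through 48 further genes for ligands, receptors, carriers, their proteases, adaptors and the PI3 kinase step, of which 14 had a peak. Of these 14 genes 7 were aged-only, 1 young-only and 6 in both lists. They held 15 aged and 10 young peaks. With only peaks of a fold of at least 2.00 the genes were 2 aged-only, 2 young-only and 3 in both lists. The larger number of aged-only genes thus depends on peaks below that fold. Over all genes the same cut left 826 aged-only, 1729 young-only and 604 in both lists. The cut lies above the median fold of the aged list (1.88) and below that of the young list (2.05). Without the cut, the aged-only share among all genes with a peak was 26.9% and the young-only share 41.3%. The whole list was chosen with earlier results of these data known, and its counts are a description.

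Among receptor genes, IGF1R, which binds both IGF ligands, had an aged peak only, labelled 3' UTR on chromosome 18 (7502735 to 7502885) with a fold of 1.97. INSR, the insulin receptor gene, had peaks at both ages that did not overlap. They were 1 aged peak labelled 3' UTR with a fold of 1.73, and 2 young peaks labelled 3' UTR and stop codon with folds of 2.75 and 2.29. The clearance receptor gene IGF2R and the related INSRR had no peak in either list, nor had the insulin gene INS.

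Beyond IGFBP3 and IGFBP5, the only carrier gene with a peak was IGFALS, whose product stabilises the IGF and IGFBP3 complex in blood, in the young list with a fold of 2.53. The other 6 carrier genes had none. Of 9 genes for carrier proteases and their inhibitors, STC1 alone had a peak, in the aged list with a fold of 1.65, and its product inhibits the protease PAPPA. The IGF2 mRNA binding protein genes, 3 in number, had no peak at either age.

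Of 15 other adaptor and regulator genes, 7 had a peak, 3 in the aged list only and 4 in both. GRB14, a receptor-binding adaptor gene that dampens insulin signalling, was aged-only with folds of 2.25 and 1.5, as were the adaptor gene SHC1 (1.59) and SOCS2 (1.58), a feedback inhibitor of growth hormone signalling. GRB2, the adaptor to the RAS pathway, had a peak with identical boundaries at both ages, with a fold of 2.40 in the aged list and 1.67 in the young list. IRS2, the close relative of IRS1, had overlapping peaks with a fold of 1.95 at both ages, labelled 3' UTR in the aged list and stop codon in the young list, and a second aged peak (1.58). IRS1 was thus aged-only while IRS2 was listed at both ages.

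The remaining adaptor genes in both lists were regulators. PTPN11, a phosphatase gene that promotes RAS signalling, had overlapping peaks with a fold of 4.60 in the aged list and 1.80 in the young list, and a second young peak (2.17). The log10 p of the aged PTPN11 peak was -4.63, beyond that of 28.7% of aged peaks, so its p-value ranked lower than its fold. SOCS3, a cytokine feedback inhibitor gene, had overlapping peaks with a fold of 2.00 in the aged list and 2.62 in the young list.

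Of 9 genes counted at the PI3 kinase step, 3 had a peak, 2 in the aged list only. These were PIK3CB (1.82), a catalytic subunit gene, and PIK3R1 (1.85), the main regulatory subunit gene. Their log10 p differed, at -35.1 for PIK3CB and -5.4 for PIK3R1, beyond that of 99.6% and 39.5% of aged peaks. PIK3CA, the other catalytic subunit gene with a peak, had 1 aged peak (2.75) and 2 young peaks (1.60 and 2.21). The aged and young peaks of PIK3CA did not overlap, and the same held for INSR, so 4 of the 6 genes in both lists had an overlapping pair.

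**Figure D4:**
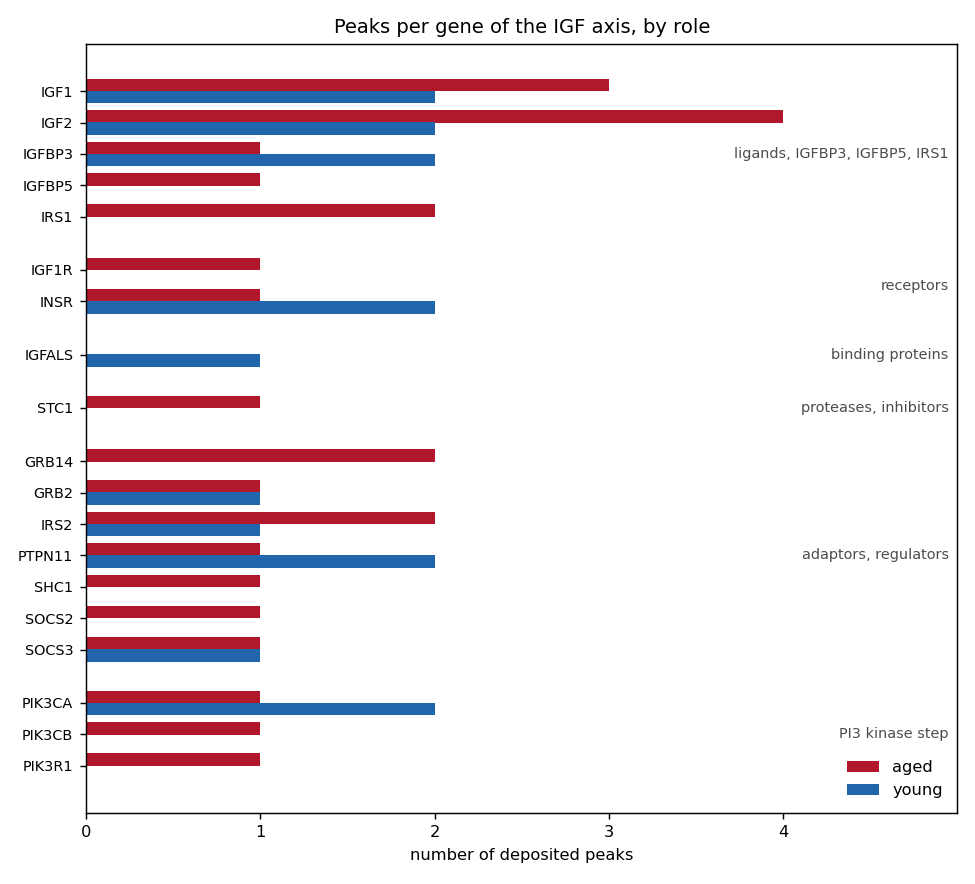
Number of deposited peaks (x axis) per gene of the IGF axis with a peak in either list, grouped by role, with the aged bar above the young bar. IGF2 has the most aged peaks with 4, and 9 of the 19 genes have aged bars only, whereas IGFALS alone has a young bar only. Of all genes with a peak, 26.9% were aged-only and 41.3% young-only. The genes shown were chosen with earlier results of these data known. With only peaks of a fold of at least 2.00, the genes outside the main 5 were 2 aged-only and 2 young-only.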

How the data were processed

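RNA was immunoprecipitated with an antibody against m6A beside an input, and a strand-keeping total RNA kit was used, per the labels' protocols. The submitters' processing notes name ChIPseeker, a peak annotation tool. For the aligner, peak caller and build, no name is given in the sources used here. Per the file headers, the deposited lists give for each peak a fold enrichment (a linear ratio), a p-value with its adjusted p-value, both also as log10 (treated as a score), and a width in bases without introns. Starts were shifted by 1 base. Genes were taken by deposited gene name, and chromosome numbers, transcript counts and gene ends from a RefSeq gene table (ARS-UI_Ramb_v3.0), matched by identifier for 99.5% of aged and 99.5% of young peaks. A peak overlapped another when their genomic spans shared at least 1 base on the same strand; introns lay within 22.5% of aged and 16.9% of young spans. Overlap code was tested on simulated peaks. Genes and lists were chosen with earlier results of these data known. All peaks of the 5 genes, and every counted gene of the wider list with a peak, are named; 2 genes of that list are not reported here and not counted in it. Alternatives were a fold of at least 2.00 (the median over both lists), a limit of 0.01 on the adjusted p, lists of equal length by p-value, other overlap rules and each strand alone; peaks within 1 exon were added after seeing the data. The tools were matplotlib 3.10.9, scipy 1.17.1, numpy 2.4.6 and pandas 2.3.3 under Python 3.11.15.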

Additional observations from a re-analysis of the deposited data

How the results depend on the processing

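Depth is unknown and there is 1 list per age. No paired analysis was possible because each age has a single peak list and no result comes from a test. Overlap of exon blocks could not be run, since the files give spans without blocks. A fold of at least 2.00 changed most. It left 4 aged peaks of the 5 genes (11 as deposited), with 1 in IGF2, 1 in IRS1 and none in IGFBP3 or IGFBP5, and 4 young peaks, none of them in IGF2. IGFBP3 then became young-only (1 gene), IGF2 joined IRS1 as aged-only, 1 gene stayed in both lists, and 1 aged and 1 young peak overlapped. The wider list became 2 aged-only, 2 young-only and 3 shared genes, and all genes 826 aged-only, 1729 young-only and 604 shared. The share of all peaks that overlapped became 32.8% of aged and 20.2% of young peaks. At equal list lengths the overlap was 36.0% of aged and 36.0% of young peaks, and IGF1 kept 1 young peak, its peak labelled stop codon being too weak. With 50% of both peaks the shares were 29.0% of aged and 24.3% of young peaks. The young share was 32.7% with an adjusted p of at most 0.01 and 31.2% within 1 exon, where IGFBP3 kept 1 young peak. The stop codon label was on 27.5% of plus-strand and 2.58% of minus-strand aged peaks and on 43.1% of plus-strand and 39.0% of minus-strand young peaks. By rank within each list, 3 pairs were again lower in the aged list, those of IGF1 and IGFBP3.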
